A study of Caenorhabditis elegans with 4 samples.

Results

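Guanylyl cyclases are the enzymes that make cyclic GMP (cGMP). The genes described here are all those whose name is *gcy* followed by a number, together with *daf-11* and *odr-1*, which encode cyclases of the same family. This rule found 34 of the 41560 gene symbols in the deposited expression tables. They comprise 27 receptor-type genes and 7 soluble genes, *gcy-31* to *gcy-37*. The rule uses gene names and not expression values, but it was set with earlier results of these data known. Each had a single row in the tables. RefSeq lists *gcy-2* as a pseudogene, and the other 33 are annotated as protein-coding.

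Most *C. elegans* guanylyl cyclases are known from sensory neurons. The receptor-type proteins span the membrane, often in the sensory cilium, and carry the catalytic domain inside the cell. The soluble proteins are cytoplasmic, and several bind oxygen through a haem group. The cGMP that is made opens the TAX-2/TAX-4 cation channel or activates protein kinases such as EGL-4, and phosphodiesterases break it down.

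The 2 libraries analysed (n = 2 replicates) are of neurons from wild-type young adults of strain CZ631, which carries the transgene *juIs14[Pacr-2::gfp]*. Animals were grown for 72 hours at 20°C and dissociated, and 80000 to 100000 GFP-positive cells were sorted per sample. The study also has 2 *acr-2(gf)* samples, of strain CZ5808 with the same transgene and the *acr-2(n2420)* allele, which were not analysed here, so there is 1 condition and no comparison between genotypes. The *acr-2* promoter labels the cholinergic motoneurons of the ventral cord and several neurons of the head and tail that have not been identified. The question asked here is which sensory neuron cyclases were present or absent in these libraries.

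Levels are in FPKM, the number of fragments of a gene scaled to the length of its transcript in kilobases and to the total of mapped fragments. Genes with over 10 FPKM in each of the libraries are called expressed here. The labelled cell type was checked with marker genes. All 4 core cholinergic genes, all 5 genes of the ventral cord cholinergic motoneurons and all 8 pan-neuronal genes looked up were expressed, with medians of 214, 94.5 and 1368 FPKM over the lists. Markers of other tissues were present too, with 3 of 4 body-wall muscle, 1 of 4 hypodermal, 2 of 4 intestinal and 3 of 4 germline genes expressed. Their medians were 197, 2.05, 291 and 83.6 FPKM, so the muscle and intestinal lists lay at levels like those of the cholinergic lists. The highest genes were *pat-10* of muscle at 3825 FPKM and *col-19* of the hypodermis at 2433 FPKM, as means. Of 4 glial genes none was expressed, with values from 0 to 9.42 FPKM. Library 1 had 13107 loci above 0 and library 2 had 16792. Between 0 and 1 FPKM there were 1075 loci in library 1 and 3482 in library 2. In bulk libraries, fewer cells of a type and less RNA per cell cannot be told apart.

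A value of 0 in library 1 did not always mark a low gene. In library 1, 132 protein-coding genes were listed at 0 that had over 10 FPKM in library 2, up to 3556 FPKM, and 1 of 75 ribosomal protein genes was at 0. The reverse held for 27 genes. The 132 genes were a small part of those at 0 in library 1. Of protein-coding genes, 3073 were at 0 in library 1 and above 0 in library 2, and 3615 were at 0 in both. Genes with a value of 0 are therefore described below as listed at 0.

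Of the 34 cyclase genes, 2 were expressed, *gcy-28* and *gcy-12*. This is 5.88% of the genes, against 16.5% of all gene symbols and 33.0% of the 17806 annotated protein-coding genes. With levels as TPM, in which all values of a library are rescaled to a common total, or with a limit of 20 FPKM, the count was 1 and *gcy-12* did not pass. Both are receptor-type, and none of the 7 soluble genes was expressed. Over 1 FPKM in both libraries were 7 cyclase genes (20.6%), against 26.7% of all symbols and 53.6% of protein-coding genes. Above 0 in both libraries were 18 cyclase genes (52.9%), against 30.5% of all symbols and 61.2% of protein-coding genes. Listed at 0 in both libraries were 6 cyclase genes (17.6%), against 59.3% of all symbols and 20.3% of protein-coding genes. The median FPKM of the 34 genes was 0.284 in library 1 and 0.162 in library 2, against 2.90 and 3.80 for the protein-coding genes. Over the receptor-type genes it was 0.00920 and 0.127 FPKM, and over the soluble genes 0.796 and 1.38 FPKM. The median of the means of the 34 genes, 0.471 FPKM, lay above the median of either library. No soluble gene was over 2.81 FPKM in either library, and none was at 0 in both. With 7 soluble and 27 receptor-type genes, the ranges of the classes were not compared.

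**Figure D1:**
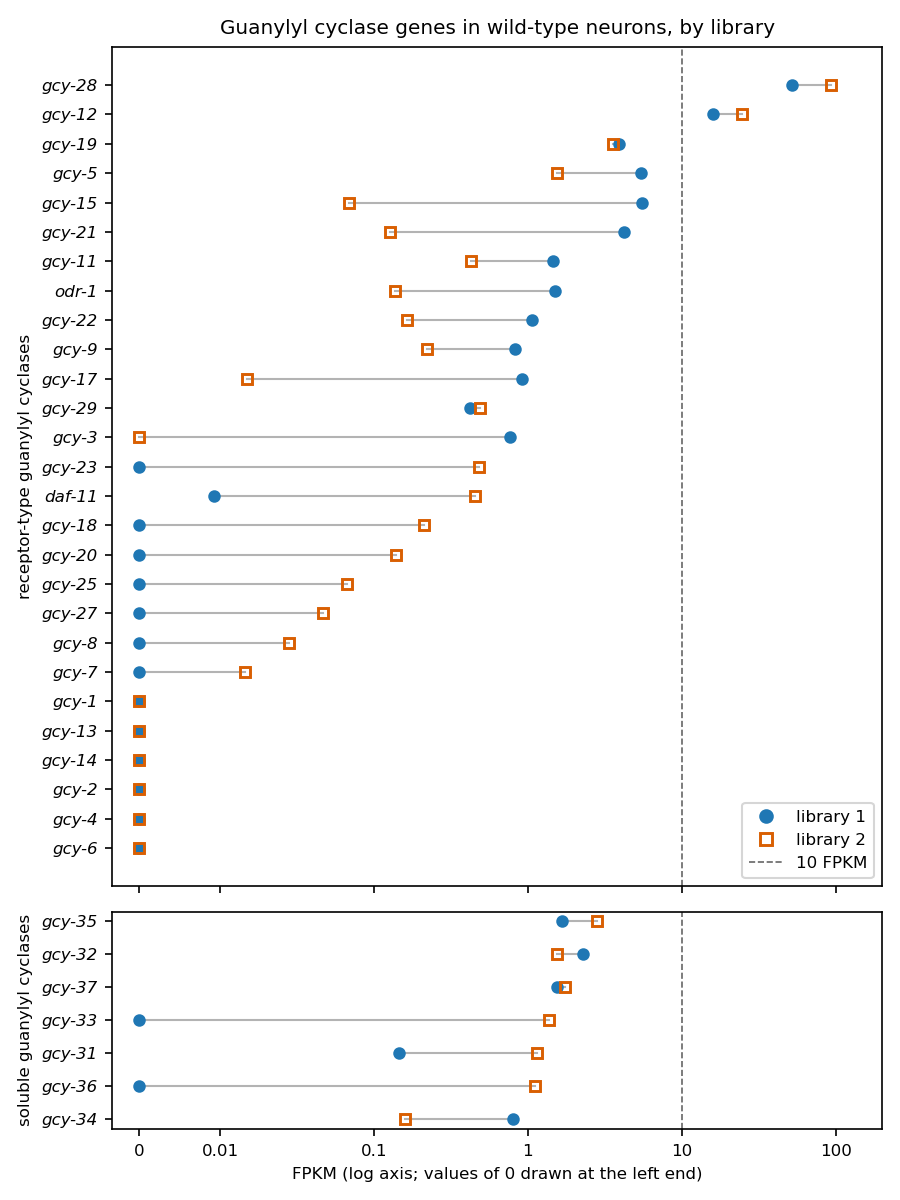
FPKM of the 34 guanylyl cyclase genes on a log axis with values of 0 at its left end, with a filled circle for library 1, an open square for library 2 and a grey line joining them; genes are ordered by their mean within the receptor-type (upper panel) and soluble (lower panel) classes, and the dashed line is at 10 FPKM. Both libraries lie past the line for *gcy-28* and *gcy-12* only, and the 7 soluble genes lie at or under 2.81 FPKM.

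*gcy-28* (WBGene00020131) is a receptor-type cyclase that is found in many neurons, including interneurons, and in other tissues. It acts in olfactory and salt learning. It had 52.0 FPKM in library 1 and 93.3 FPKM in library 2, a mean of 72.7 ± 29.2 FPKM (SD, n = 2). The lower bounds of the Cufflinks intervals were 49.9 and 90.1 FPKM. It was the highest cyclase gene in each library, above 85.1% of protein-coding genes in library 1 and 90.2% in library 2. *gcy-28* alone made up 51.7% of the summed FPKM of the 34 genes in library 1 and 68.6% in library 2. The part of other tissues in the *gcy-28* values was not tested. The gene lies on chromosome I from 4481239 to 4508208 in the ce10 build, the build of the files, with 4 annotated transcripts. T01A4.6, on the opposite strand, lies within this span at 39.1 and 26.2 FPKM. The exons of the 2 genes share 0 bp in the WBcel235 annotation.

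*gcy-12* (WBGene00001538) is a receptor-type cyclase that acts in sensory neurons in the control of body size, together with EGL-4. It had 15.9 FPKM in library 1 and 24.5 FPKM in library 2, a mean of 20.2 ± 6.08 FPKM (SD, n = 2), with lower bounds of 15.3 and 23.8 FPKM. The gene lies on chromosome II from 5312103 to 5319066 in ce10, and no other gene over 1 FPKM overlaps it. Its values did not overlap those of *gcy-28* above it. They did not overlap those of the third gene, *gcy-19*, either, which had 3.92 and 3.56 FPKM. Together, *gcy-28* and *gcy-12* made up 67.6% of the summed cyclase FPKM in library 1 and 86.7% in library 2.

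Below 10 FPKM, 5 genes lay between 1 and 10 FPKM in both libraries, *gcy-19*, *gcy-5*, *gcy-32*, *gcy-35* and *gcy-37*. Next to each other in the order of means, *gcy-19* at 3.74 ± 0.249 FPKM and *gcy-5* at 3.50 ± 2.77 FPKM (SD, n = 2 for each) did not differ beyond their spread. A further 8 genes were over 1 FPKM in 1 library and under 1 in the other. The remaining 13 genes with a value above 0 never passed 1 FPKM. The shares of all genes in these bands were not counted, so these counts are not read as a trait of the cyclases.

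The taste neuron pair ASE, which senses salts, has different cyclases on its left (ASEL) and right (ASER) side. Of the 5 ASER genes, *gcy-5* was the highest, with 5.46 FPKM in library 1 and 1.54 FPKM in library 2. *gcy-22*, a cyclase needed for the response of ASER to salts, had 1.07 and 0.163 FPKM. *gcy-3* had 0.771 FPKM in library 1 and was listed at 0 in library 2, while *gcy-1* and *gcy-4* were listed at 0 in both. All 3 detected ASER genes were thus lower in library 2. The 4 ASEL genes, *gcy-6*, *gcy-7*, *gcy-14* and *gcy-20*, were listed at 0 in library 1 and reached no more than 0.139 FPKM, of *gcy-20*, in library 2. *che-1*, the transcription factor gene that defines ASE, was listed at 0 in library 1 and had 0.0519 FPKM in library 2. *cog-1* and *lim-6*, which act in ASE asymmetry but are also used by other cells, had 133 and 118 FPKM and 193 and 79.6 FPKM.

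Some of these genes stand next to each other on chromosome II. *gcy-3*, *gcy-2* and *gcy-1* follow each other with gaps of 322 bp and 394 bp, and *gcy-3* was the only one above 0 in a library. *gcy-4* ends 1573 bp before *gcy-5*, and the first was listed at 0 in both libraries where the second was over 1 FPKM. Reads shared by such paralogs could have been split between them, which was not tested. The locus of *gcy-5* also overlaps that of ZK970.7, which had 15.3 and 7.25 FPKM. ZK970.7, like *gcy-5*, had its higher value in library 1, and its part in the *gcy-5* values was not tested. The exon overlap of the pair was not measured, as ZK970.7 had no match in the WBcel235 annotation.

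The AFD neurons sense temperature through the receptor-type cyclases *gcy-8*, *gcy-18* and *gcy-23*. All 3 were listed at 0 in library 1 and were above 0 in library 2, at 0.0281, 0.211 and 0.485 FPKM. The lower bound of *gcy-8* was 0 in library 2 as well. Of 4 other AFD markers, *srtx-1* and *nhr-38* were listed at 0 in both libraries. *ttx-1*, the homeobox gene that defines AFD, had 1.03 and 1.65 FPKM, and *dac-1* had 1.86 and 3.64 FPKM. No gene of either AFD list passed 10 FPKM.

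The BAG neurons sense carbon dioxide and falling oxygen. *gcy-9*, the receptor-type cyclase of the carbon dioxide response, had 0.823 FPKM in library 1 and 0.223 FPKM in library 2. The soluble cyclases of the oxygen response went the other way. *gcy-33* was listed at 0 in library 1 and had 1.38 FPKM in library 2, and *gcy-31* had 0.145 and 1.14 FPKM. *ets-5*, the transcription factor gene needed for BAG development, was likewise listed at 0 in library 1, with 3.65 FPKM in library 2. The peptide gene *flp-17*, the other BAG marker looked up, stood far above these genes at 163 and 144 FPKM. In the imaging of the study, a reporter of the peptide gene *ins-29* marked BAG neurons. Where wild-type animals showed this reporter, it did not overlap with *Pacr-2::gfp*. The part of BAG neurons in the values given here was not tested.

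The URX, AQR and PQR neurons sense rising oxygen, for which the soluble cyclases GCY-35 and GCY-36 are known to work as a pair. *gcy-35* had 1.66 and 2.81 FPKM, while *gcy-36* was listed at 0 in library 1 and had 1.12 FPKM in library 2. *gcy-35* overlaps T04D3.5 on the opposite strand, at 28.4 and 41.3 FPKM, by 5 bp of exon in WBcel235. *gcy-37* was the most even soluble gene between the libraries, at 1.55 and 1.74 FPKM. *gcy-32* had 2.29 and 1.55 FPKM, and *gcy-34* had 0.796 and 0.160 FPKM. The receptor-type gene *gcy-25* was listed at 0 in library 1 and had 0.0668 FPKM in library 2. Of the other markers of these cells, the globin gene *glb-5* had 4.72 and 0.949 FPKM. *flp-8* and *egl-13*, which other neurons also express, were at 251 and 128 FPKM and at 49.8 and 19 FPKM.

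In the olfactory and other chemosensory neurons of the amphid, *daf-11* and *odr-1* make the cGMP of the olfactory and dauer pathways. *odr-1* had 1.51 FPKM in library 1 and 0.137 FPKM in library 2. *daf-11* had 0.00920 FPKM with a lower bound of 0 in library 1, and 0.453 FPKM in library 2. The libraries thus ranked these genes in opposite order. *gcy-27* was listed at 0 in library 1 and had 0.0469 FPKM in library 2. *gcy-15* and *gcy-21*, which are known from the ASG neurons, were both high in library 1 and low in library 2. *gcy-15* had 5.55 and 0.0691 FPKM, an 80.3-fold difference, and *gcy-21* had 4.24 and 0.127 FPKM, a 33.4-fold difference. *gcy-15* was the highest cyclase gene of library 1 after *gcy-28* and *gcy-12*. Of 13 markers of other amphid neurons, 0 were expressed and 5 were listed at 0 in both libraries. The highest values were those of *osm-10*, at 1.77 and 13.9 FPKM, and *daf-7*, the TGF-beta ligand gene of ASI, at 12.4 and 1.48 FPKM.

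**Figure D2:**
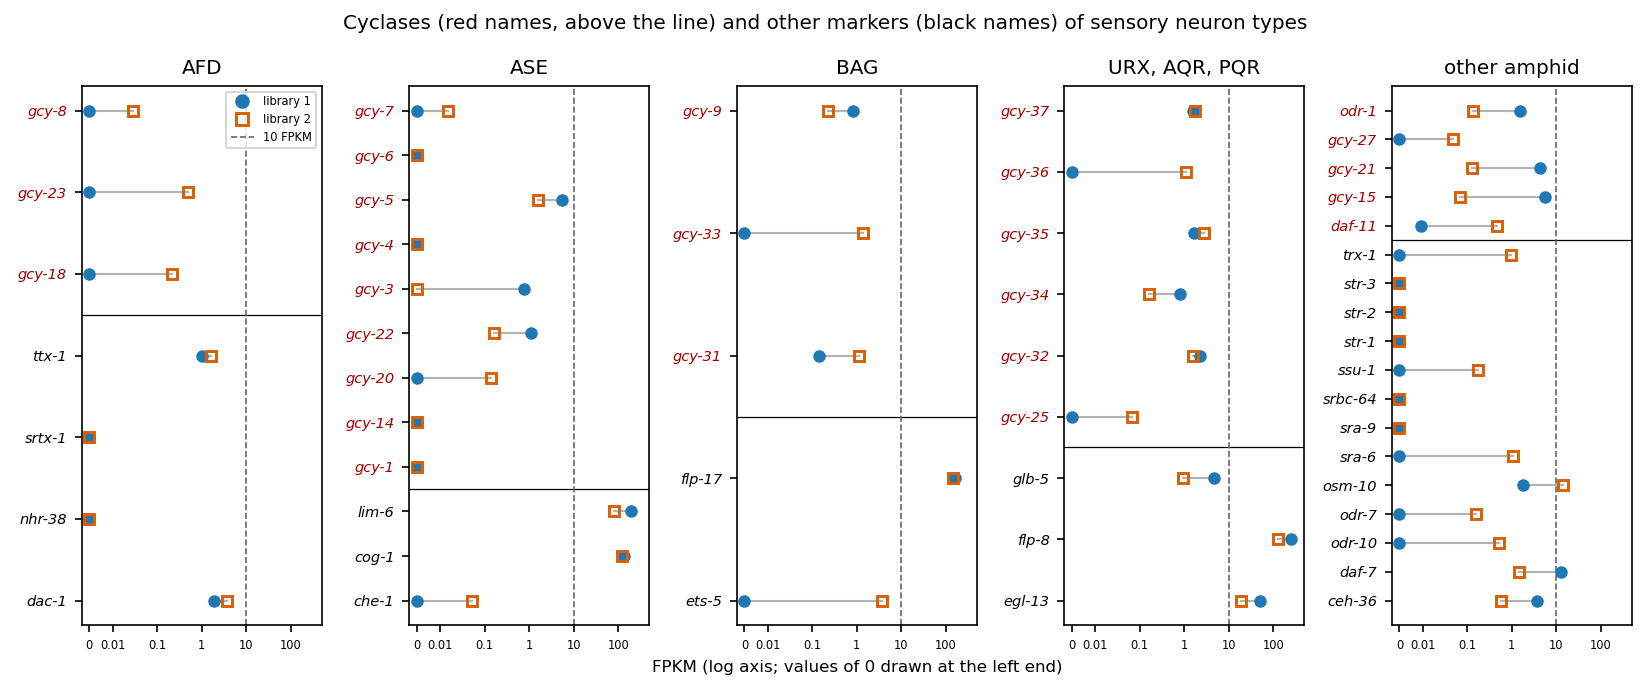
FPKM on a log axis of the cyclases (red names, above the line) and of the other markers looked up (black names, below the line) for 5 sets of sensory neurons, with a filled circle for library 1 and an open square for library 2. All cyclases in these panels lie left of the dashed line at 10 FPKM, where the AFD genes reach 0.485 FPKM and *gcy-15* reaches 5.55 FPKM, while *flp-17*, *flp-8*, *egl-13*, *cog-1* and *lim-6* lie right of it in both libraries. *gcy-12* and *gcy-19* were not assigned to a set and are not shown.

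The other receptor-type genes were low as well. *gcy-11* had 1.46 and 0.429 FPKM, and *gcy-17* had 0.913 and 0.0150 FPKM, with a lower bound of 0 in library 2. *gcy-29* had 0.423 and 0.489 FPKM, which made it 1 of the few genes with nearly the same value in both. *gcy-13*, a cyclase of the RIM interneurons, was listed at 0 in both libraries. It spans the locus of *fipr-2*, on the opposite strand, which had 339 and 86.8 FPKM, and the exons of the 2 genes share 0 bp. *gcy-2* was also listed at 0 in both.

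The cyclases below 10 FPKM often differed between the libraries. The shares of other genes given below cover genes of all levels, while the median cyclase lay under the median protein-coding gene. Whether cyclases differed more than other genes of a like level was not tested. Of the 34 genes, 12 were higher in library 1, 16 were higher in library 2 and 6 were listed at 0 in both. The split of all genes by the higher library was not counted, so this split is not read as a trait of the cyclases. Library 2 had more loci above 0, 16792 against 13107. Above 0 in both and over 2-fold apart were 11 genes (32.4%), against 10.2% of all symbols and 20.3% of protein-coding genes. Of these 11, 9 were higher in library 1 (81.8%), where 45.0% of all symbols and 45.3% of protein-coding genes so far apart were, and the exceptions were *daf-11* and *gcy-31*. Listed at 0 in library 1 and above 0 in library 2 were 9 genes (26.5%), against 9.44% of all symbols and 17.3% of protein-coding genes, and only *gcy-3* showed the reverse (2.94%, against 0.77% and 1.29%). In 22 of the 28 genes with unequal values (78.6%), the lower bound in the higher library was above the FPKM of the other, a share near the 83.0% of all symbols and 84.7% of protein-coding genes with unequal values, and the exceptions were *gcy-19*, *gcy-27*, *gcy-29*, *gcy-37*, *gcy-7* and *gcy-8*. Ratios of library 2 over library 1 were also taken on log2(FPKM + 1). The median ratio of all expressed genes, 0.12 on the log2 scale, was removed. After this, 10 genes had a positive ratio and 6 genes changed sign. By this measure the largest differences were those of *gcy-15* at -2.74 and *gcy-21* at -2.34, as the log2 ratio of library 2 over library 1, and the largest in the other direction was that of *gcy-33* at 1.13. This scale understates the change of low genes. Among the 6 sign changes, *gcy-7*, *gcy-8*, *gcy-25* and *gcy-27* were listed at 0 in library 1 and above 0 in library 2. Their negative ratios come from the removal of the median ratio and not from a higher level in library 1. With 2 libraries of 1 condition no test was made.

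**Figure D3:**
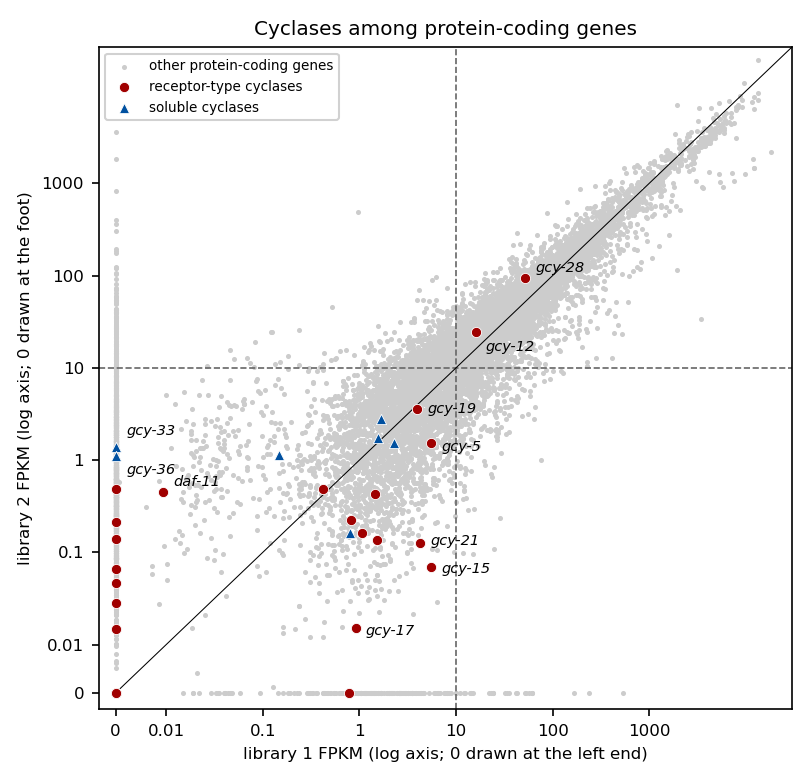
FPKM in library 1 against FPKM in library 2 on log axes, with grey points for the other protein-coding genes, red circles for receptor-type and blue triangles for soluble cyclases; the diagonal marks equal values and the dashed lines 10 FPKM. *gcy-28* and *gcy-12* lie past both dashed lines, 9 genes stand at 0 on the library 1 axis only, and *gcy-15*, *gcy-21* and *gcy-17* lie far below the diagonal.

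The intervals give an estimate of how many fragments lay behind these low values. If the lower bound lies 2 square roots of the fragment number below it, the values of genes with 1 annotated transcript imply 28000000 mapped fragments in library 1 and 33800000 in library 2, as medians over 1552 and 1426 genes. For such genes under 100 fragments, 38.6% of the implied numbers in library 1 and 56.9% in library 2 lay within 0.1 of a whole number, where 20% would by chance, so these numbers are approximate. The estimate gave 617 fragments for *gcy-15* in library 1 and 9.03 in library 2, and 473 and 17 for *gcy-21*. *gcy-37* rested on 107 and 146 fragments. For a receptor-type transcript of the median length of 3412 bp, 3 fragments correspond to 0.0314 FPKM in library 1 and 0.0260 FPKM in library 2. Below these levels were *daf-11* in library 1, at 0.00920 FPKM, and *gcy-7* and *gcy-17* in library 2, at 0.0146 and 0.0150 FPKM. The 61.0-fold difference of *gcy-17* and the 49.3-fold difference of *daf-11* between the libraries rest on these values. These numbers cover counting error only, and read counts were not analysed here. The paper states more single-end reads per sample than the mapped fragments implied here, and does not state the share that mapped.

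The other genes of the cGMP pathway were looked up in 5 lists with 21 genes, of which 9 were expressed. The same limit was passed by 16.5% of all gene symbols and 33.0% of protein-coding genes. The parts of the pathway differed in level. Both cGMP-dependent protein kinase genes were expressed, *egl-4* at 216 FPKM in each library and *pkg-2* at 313 and 363 FPKM, above every cyclase gene in each library. EGL-4 is the kinase of olfactory adaptation and body size. Of the 6 phosphodiesterase genes, 5 were expressed. The members for which cGMP is a known or predicted substrate were *pde-1* at 42.1 ± 2.62 FPKM, *pde-2* at 89.4 ± 29.5 FPKM and *pde-3* at 76.0 ± 25.4 FPKM. *pde-4* and *pde-6*, which belong to families that break down cyclic AMP, had 208 ± 30.8 FPKM and 88.2 ± 12.7 FPKM (SD, n = 2 for each). *pde-5* did not pass, being listed at 0 in library 1 with 0.127 FPKM in library 2.

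None of the 6 cGMP-gated channel genes was expressed, and none reached 1 FPKM in either library. *tax-2*, which encodes the beta subunit of the main sensory channel, was listed at 0 in both libraries. *tax-4*, which encodes its alpha subunit, was listed at 0 in library 1 and had 0.195 FPKM in library 2. *cng-1* was the only channel gene above 0 in both, at 0.688 and 0.591 FPKM, and *cng-2*, *cng-3* and *che-6* were listed at 0 in library 1 and had at most 0.319 FPKM in library 2. The summed FPKM of the 6 channel genes was 0.688 in library 1 and 1.34 in library 2, beside sums of 101 and 136 for the 34 cyclases and of 529 and 579 for the 2 kinases. Without *gcy-28* and *gcy-12*, the sums of the other 32 cyclases were 32.6 and 18.1. These sums are over unlike numbers of genes.

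The genes of the list of cyclase trafficking factors, which are not all particular to cilia, also differed in level among themselves. *daf-25*, the Ankmy2 homolog needed to place cyclases in cilia, had 22.1 and 33.6 FPKM, and *daf-21*, the Hsp90 gene, had 973 and 1219 FPKM. *tub-1*, the Tubby homolog, was listed at 0 in library 1 and had 1.44 FPKM in library 2. Of the 4 G protein alpha subunit genes of sensory neurons, none passed 10 FPKM in both libraries. *gpa-2* had 15.9 and 7.73 FPKM and *odr-3*, the main alpha subunit of olfactory signalling, had 7.11 and 8.05 FPKM. *gpa-3* had 1.97 and 3.40 FPKM, and *gpa-13* was listed at 0 in library 1 and had 1.21 FPKM in library 2.

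**Figure D4:**
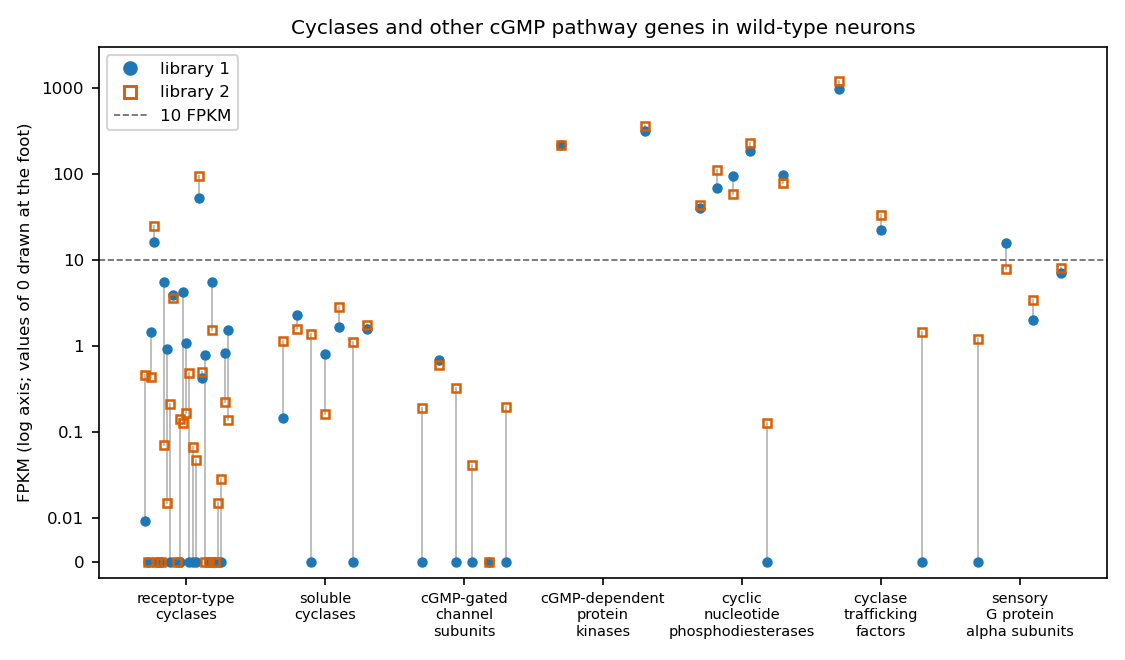
FPKM on a log axis of each gene of the receptor-type and soluble cyclases and of the 5 pathway lists, with a filled circle for library 1 and an open square for library 2 joined by a grey line. The kinases and all phosphodiesterases but *pde-5* lie above the dashed line at 10 FPKM, the 6 channel genes lie at or under 0.688 FPKM, and of the cyclases *gcy-28* and *gcy-12* alone lie above the line.

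Genes of the sensory cilium itself were low in these libraries. Of 13 genes of ciliated neurons, only *daf-19* was expressed, at 22.4 and 25.7 FPKM. *daf-19* encodes the RFX transcription factor of ciliated neurons, and other isoforms of it are known from neurons without cilia. The other 12 genes, which include those of intraflagellar transport such as *osm-5*, *osm-6* and *che-13*, had at most 2.50 FPKM in library 1 and 3.34 FPKM in library 2, with 5 of them listed at 0 in library 1 and 0 in library 2. Most of these genes were therefore under 10 FPKM and not uniformly at 0. The same held for the cyclases of the sensory neuron sets above, which leave out *gcy-12*. The part of ciliated sensory neurons among the sorted cells in the cyclase values was not tested.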

How the data were processed

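Within Galaxy, the authors aligned single-end reads with TopHat. Cufflinks then gave every gene an FPKM with a confidence interval in each library. The submitters' processing notes name the ce10 build. Program versions, annotation and strandedness are not given in the sources used here. FPKM is normalized for length and mapped reads. The deposited FPKM and its lower bound were used, and 2 columns of upper bounds were not. The column names give no replicate number, so the libraries carry the numbers of the deposited tables. The tables hold 42518 loci, and 11 names turned into dates in library 1 were taken from library 2. For a symbol with several loci the highest mean FPKM was kept.

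All 34 cyclases, all pathway genes, the defining markers of sensory neuron types and genes that overlap or adjoin a described cyclase were named. The members and the lists of 5 pathway groups and 15 cell types were chosen with earlier results of these data known. Biotypes and exons are from WBcel235 (Ensembl release 115), in which 33 cyclases matched. Alternatives were other limits, the lower bound, TPM, upper-quartile scaling, summed loci, other pseudocount and centring, and each library left out. The sources used here do not say whether the replicates came from separate cultures, so their spread may be technical. The joining and selection steps were tested on simulated data. Python 3.11.15, numpy 2.4.6, pandas 2.3.3 and matplotlib 3.10.9 were used. Files of reads, read counts and sequence tables were not used here.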

Additional observations from a re-analysis of the deposited data

How the results depend on the processing

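The number of expressed cyclase genes, 2 as reported, was 7 at a limit of 1 FPKM. It was 1 at the stricter limits of 20 FPKM and 10 TPM, where *gcy-12* no longer passed. It stayed 2 under the other alternatives, and with either library left out. The number listed at 0 in both libraries, 6 as reported, was 10 where under 0.1 FPKM was counted, 9 with a lower bound of 0, and ranged from 7 to 15 with a library left out, where 15 is the count in library 1 alone. The median of the cyclase genes, 0.471 FPKM, was 0.264 as TPM, 0.494 after upper-quartile scaling, and ranged from 0.162 to 0.284 with a library left out. The share of *gcy-28* in the summed cyclase FPKM, 60.2% ± 12 (SD, n = 2), ranged from 51.7 to 68.6 with a library left out. The number of expressed pathway genes, 9, ranged from 9 to 12 over its alternatives. Of the 34 means, 7 moved beyond their SD as TPM, which multiplies each library by 1 factor, and 0 did so with upper-quartile scaling. Summed loci could not change any cyclase value, as each cyclase gene had a single row. The 6 genes at 0 in both libraries could not move under any scaling. Centring changed the sign of 6 of 28 log2 ratios, as did a pseudocount of 0.1. Among the 6 were genes listed at 0 in library 1 and above 0 in library 2, whose negative sign came from centring. No paired analysis was possible because both libraries analysed are of 1 condition.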

Other observations

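The adenylyl cyclases, which make cyclic AMP, were looked up after the values of the guanylyl cyclases had been seen. Of the 4 genes, 1 was expressed, *acy-1*, with 30.1 FPKM in library 1 and 60.5 FPKM in library 2. *acy-1* encodes the cyclase of Gs signalling in neurons. *acy-2* had 12.9 and 6.66 FPKM, *acy-3* had 2.76 and 5.47 FPKM, and *acy-4* had 2.88 and 2.31 FPKM. All 4 were above 0 in both libraries.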
